A study of Homo sapiens with 4 samples.

Results

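Actins and tubulins are the building blocks of the actin filaments and the microtubules. The 10 genes described here are the cytoplasmic actins ACTB and ACTG1, the alpha tubulins TUBA1A, TUBA1B and TUBA1C, and the beta tubulins TUBB, TUBB2A, TUBB3, TUBB4B and TUBB6. They were chosen by name, found through their Entrez Gene identifiers among the 19801 genes of the files, and all 10 had an RPKM above 1 in every library. RPKM is the number of reads of a gene, scaled for its exon length and for the mapped reads of the library. The cells were LNCaP, a human prostate cancer line that grows in response to androgen. They were transfected for 24 h with empty vector or with a plasmid labelled AR1-651, and then left without or given AIL for 12 h. AIL is ailanthone, a plant compound of the quassinoid class. Each of the 4 conditions (empty vector or AR1-651, without or with AIL) was sequenced as 1 library. There are no replicates, so differences are given as measured, without a test. The same cell line underlies all 4 libraries, transfection was transient, and nothing in the labels gives the share of cells that took up a plasmid.

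Both families are known for feedback from the protein to its own mRNA. When unpolymerized tubulin accumulates, the factor TTC5 recognizes the start of a new tubulin chain as it leaves the ribosome, and with SCAPER and the CCR4-NOT deadenylase it brings about the decay of that mRNA, so this decay needs translation. Actin genes are tuned mainly at transcription. Free actin monomer holds the coactivators MRTFA and MRTFB back, and when monomer is scarce they join serum response factor (SRF) at DNA elements called CArG boxes, which actin genes and many genes of the actin cytoskeleton carry.

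The coding starts of the 10 mRNAs are shown because the signal for tubulin mRNA decay is read from the residues that these bases encode. They are the first 30 coding bases, 5′ to 3′, of transcripts in GENCODE release 29, with the first 4 codons in capitals.
TUBA1A: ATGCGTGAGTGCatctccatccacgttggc
TUBA1B: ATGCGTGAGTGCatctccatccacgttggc
TUBA1C: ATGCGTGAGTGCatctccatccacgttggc
TUBB: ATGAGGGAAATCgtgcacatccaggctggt
TUBB4B: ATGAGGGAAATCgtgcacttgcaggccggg
TUBB3: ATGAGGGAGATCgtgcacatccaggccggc
TUBB6: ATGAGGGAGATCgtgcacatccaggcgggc
TUBB2A: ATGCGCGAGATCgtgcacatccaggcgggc
ACTB: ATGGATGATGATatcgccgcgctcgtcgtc
ACTG1: ATGGAAGAAGAGatcgccgcgctggtcatt
The 3 alpha tubulins shared all 30 bases. TUBB and TUBB4B shared the capital bases, as did TUBB3 and TUBB6, and the first 4 codons of all 5 beta tubulins encode the same residues. The first 4 codons of the actins encode different residues in ACTB and ACTG1.

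The genes were placed with GENCODE release 29 on GRCh38, whereas the submitters' processing notes name hg19, so no read was located by these positions. On chromosome 7, ACTB (Entrez Gene identifier 60) spans 5527147 to 5563784, minus strand, and on chromosome 17 ACTG1 (71) spans 81509971 to 81523847, minus strand. The alpha tubulin genes are neighbours on chromosome 12. TUBA1B (10376) spans 49127782 to 49131397 on the minus strand, TUBA1A (7846) 49184796 to 49189324 on the minus strand, and TUBA1C (84790) 49188736 to 49274603 on the plus strand. TUBA1A and TUBA1C thus overlap by 589 bases on opposite strands. Of the beta tubulins, TUBB (203068) lies on chromosome 6 from 30720201 to 30725426, plus strand, and TUBB2A (7280) on the same chromosome from 3153669 to 3157526, minus strand. TUBB3 (10381) lies on chromosome 16 from 89921392 to 89938761, TUBB4B (10383) on chromosome 9 from 137241213 to 137243707 and TUBB6 (84617) on chromosome 18 from 12307669 to 12344320, all on the plus strand.

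Members of the same family are similar in sequence, and how reads that match several genes were counted is not given in the sources used here. Coding sequences were identical at 95.9% to 97.2% of aligned bases among the alpha tubulins, at 91.2% between ACTB and ACTG1, and at 80.9% to 87.7% among the beta tubulins. Of the 50-base windows of the transcript, 62.7% in TUBA1B, 41.1% in TUBA1A and 25.1% in TUBA1C also occurred in a transcript of another gene. The share was 89.4% in TUBB3, 65.5% in TUBB2A, 18.2% in TUBB, 10.9% in ACTB, 9.89% in TUBB4B, 4.03% in ACTG1 and 0.993% in TUBB6. Windows shared with another member made up 56.6% in TUBA1B, 40.9% in TUBA1A and 25.1% in TUBA1C. They made up 10.1% in TUBB2A, 8.66% in TUBB3, 5.92% in TUBB4B and less in the remaining members. The split among the alpha tubulins and the levels of TUBB3 and TUBB2A are therefore uncertain, while TUBB6 and ACTG1 are nearly free of shared windows.

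The libraries expressed luminal prostate genes. All 9 luminal markers, among them KRT8, KRT18, KLK3 and FOLH1, reached an RPKM of 1, and their summed RPKM was 1650 to 3850. Basal markers (1 of 3 in the files) summed to 0 to 0.21 RPKM, leukocyte markers (2 of 4) to 0.61 to 1.07, mesenchymal markers (5 of 5) to 4.75 to 11.4 and neuroendocrine markers (6 of 7) to 9.12 to 14.9. KLK3, an androgen-induced gene, had 287 RPKM with empty vector and 1442 in the library labelled AR1-651. The product of the plasmid was not analysed here, so AR1-651 is used below only as a label.

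ACTB and ACTG1 were the most abundant members in every library, and AIL came with higher values of both. ACTB, a reference gene of the study's quantitative PCR, had 1086 RPKM in empty vector cells without AIL and 1508 with AIL, and 649.7 and 804 in cells labelled AR1-651. ACTG1, the other actin of non-muscle cells, had 767, 1803, 483 and 969 RPKM in the same order, which is kept wherever 4 values follow each other. In bulk RNA, fewer cells that express a gene and less of its RNA per cell cannot be told apart. Both libraries with AIL lay above their partner without AIL for each actin, and both libraries labelled AR1-651 lay below their partner with empty vector. Changes are given as differences of log2(RPKM + 1), and 2-fold, a value of 1, is the threshold of a call, so that "rose" and "fell" stand for a call. ACTG1 rose with AIL by 1.23 in empty vector cells and by 1.00 in cells labelled AR1-651, the latter only just past the call. ACTB changed by 0.47 and 0.31. The order of the pair turned over with AIL. The ratio of ACTB to ACTG1 was 1.42 with empty vector and 1.34 in the library labelled AR1-651, against 0.836 and 0.829 in the libraries with AIL. The ratio does not depend on how a library is scaled.

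**Figure D1:**
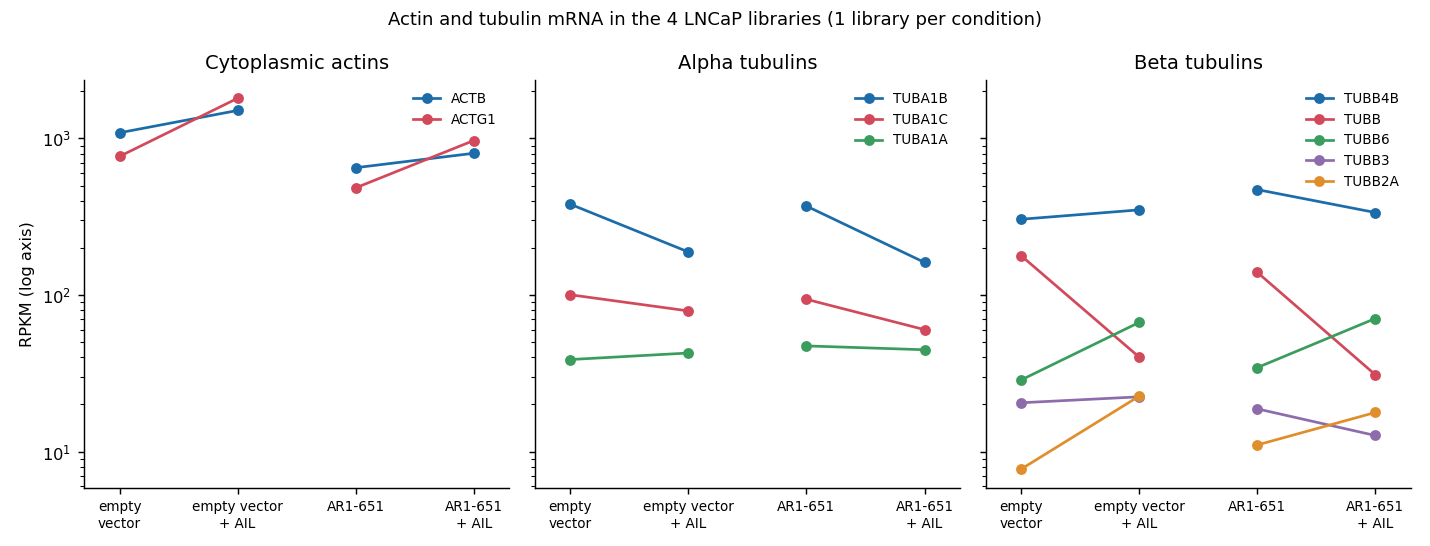
RPKM on a log axis for each of the 10 genes in each of the 4 libraries, 1 point per library, with lines joining the library without AIL to its partner with AIL. ACTG1 passes ACTB, and TUBB6 passes TUBB, in both pairs; TUBB drops from 178.5 to 40.2 RPKM with empty vector and from 139.7 to 31.0 RPKM with AR1-651.

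TUBB, a broadly expressed beta tubulin, fell further with AIL than any other member. It had 178.5 RPKM with empty vector and 40.2 with empty vector + AIL, and 139.7 in the library labelled AR1-651 and 31.0 with AR1-651 + AIL. The libraries with AIL were 4.44-fold and 4.51-fold below their partners, or -2.12 and -2.14 on the log2 scale. Among the 14626 genes that reached an RPKM of 1 in any library, 118 had a change as low as this or lower in empty vector cells and 96 in cells labelled AR1-651, TUBB included. TUBB was the 341st most abundant of all genes with empty vector and the 2520th with empty vector + AIL. In the library labelled AR1-651 it was the 687th, and with AR1-651 + AIL the 3152nd.

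TUBB4B, the beta tubulin with the same first 4 codons as TUBB, did not follow it. Values were 304 and 349 RPKM in empty vector cells, and 471 and 336 RPKM in cells labelled AR1-651. The changes with AIL were 0.20 and -0.48, neither of them a call and of opposite sign in the pair of backgrounds. The ratio of TUBB4B to TUBB was 1.71 with empty vector and 8.70 with empty vector + AIL, and 3.37 and 10.9 in the libraries labelled AR1-651 and AR1-651 + AIL.

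TUBB6 and TUBB2A went the other way from TUBB. TUBB6, a beta tubulin of divergent sequence, had 28.6 RPKM in empty vector cells and 66.8 after AIL, and 34.4 and 70.8 RPKM in cells labelled AR1-651. Each library with AIL lay above its partner, and the values hardly differed between the backgrounds. TUBB6 rose by 1.19 and by 1.02, and it is the member with the fewest windows shared with other genes. TUBB2A, best known from the nervous system, had 7.72, 22.6, 11.02 and 17.8 RPKM, and again each library with AIL lay above its partner. TUBB2A rose by 1.43 in empty vector cells, and its change of 0.64 in cells labelled AR1-651 was under the call. TUBB3, the beta tubulin of neurons, had 20.5, 22.4, 18.8 and 12.7 RPKM. Its changes with AIL were 0.12 and -0.53, and most of its transcript is shared with another annotated gene.

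The alpha tubulins were led by TUBA1B, which fell with AIL to about the level of the call. Without and with AIL it had 379.95 and 188 RPKM in empty vector cells, and 369.7 and 161 RPKM in cells labelled AR1-651. TUBA1B fell by 1.01 and by 1.19 on the log2 scale. TUBA1C had 100.3 and 79.1 RPKM in empty vector cells without and with AIL, and 93.9 and 60.1 in cells labelled AR1-651, changes of -0.34 and -0.64. TUBA1A had 38.7, 42.6, 47.3 and 44.7 RPKM, changes of 0.14 and -0.08, the second of which turned sign with the scaling. These 3 genes share their coding start, and their values without AIL differed by less between the backgrounds than between the genes. Reads shared among them could have been moved from gene to gene in the counting, so their sum is given too. It was 519 and 310.0 RPKM in empty vector cells, and 511 and 266 RPKM in cells labelled AR1-651, lower with AIL in each.

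In empty vector cells AIL thus came with 3 members at least 2-fold higher (TUBB2A, ACTG1 and TUBB6) and 2 at least 2-fold lower (TUBB and TUBA1B). In that comparison 9.53% of all 14626 genes were called higher and 9.03% were called lower. In cells labelled AR1-651, 2 members were higher (TUBB6 and ACTG1) and the same 2 were lower (TUBB and TUBA1B), against 14.9% and 5.74% of all genes. With so few members these counts describe the members and were not tested against the other genes. The median change of the members was 0.17 in empty vector cells and -0.28 in cells labelled AR1-651, beside -0.02 and 0.13 for all genes. The median hides the split, since the members spanned from -2.12 to 1.43 in empty vector cells and from -2.14 to 1.02 in cells labelled AR1-651. With median-ratio scaling, which divides each library by the median of its ratios to the mean library, ACTG1 and TUBB6 in cells labelled AR1-651 stayed higher with AIL and no longer reached 2-fold. Relative to GAPDH, a glycolytic enzyme and the other reference of the study's quantitative PCR, TUBA1B no longer reached 2-fold in either background.

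**Figure D2:**
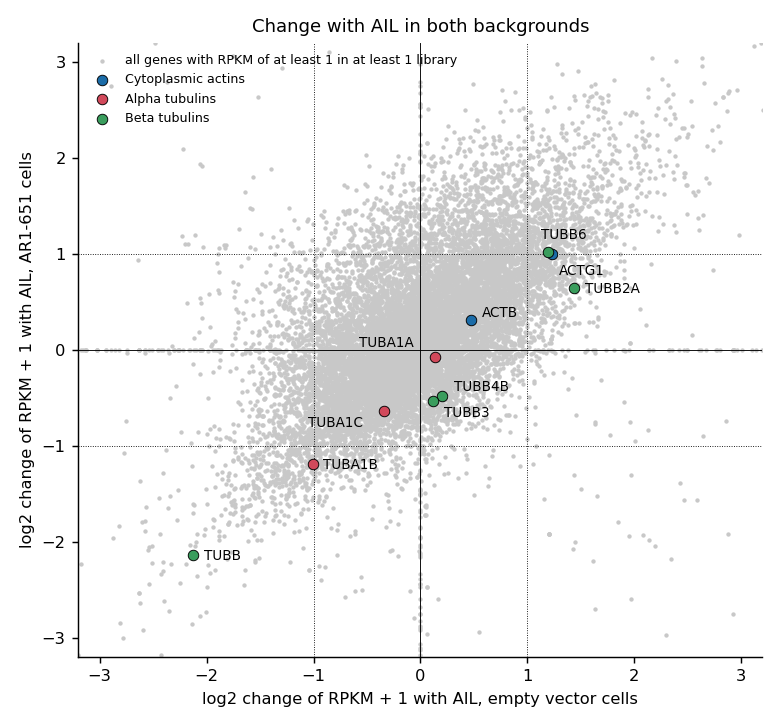
Change of log2(RPKM + 1) with AIL in empty vector cells (horizontal) against cells labelled AR1-651 (vertical) for the 10 members (coloured by family) and all genes that reached an RPKM of 1 (grey); dotted lines mark 2-fold, and 80 of the 14626 genes lie outside the axes. TUBB sits at -2.12 and -2.14, and ACTG1 and TUBB6 lie together near 1.2 and 1.0.

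**Figure D3:**
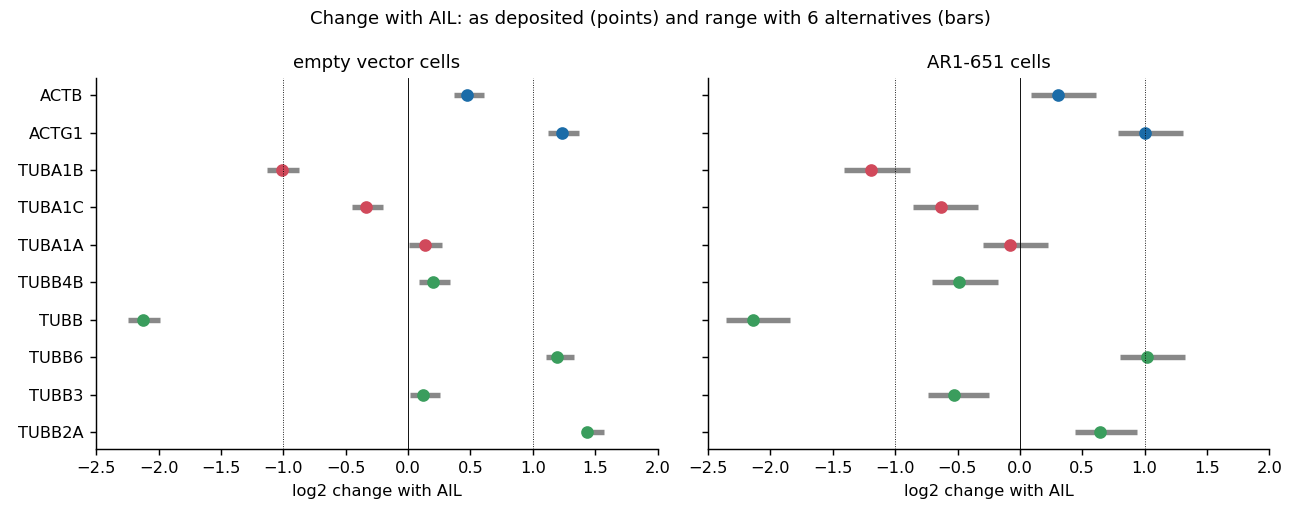
Change of log2 values with AIL for each member as deposited (points, RPKM + 1) and the range over that setting and 6 alternatives (grey bars: a smaller pseudocount, 4 other scalings and removal of length and GC trends); dotted lines mark 2-fold. TUBB stays between -2.36 and -1.84 over both panels, and TUBA1A in AR1-651 cells spans 0, from -0.30 to 0.22.

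The composition of the mRNA pools shows the same split without any scaling between libraries. TUBB held 33.1% of the summed RPKM of the 5 beta tubulins with empty vector and 8.01% with empty vector + AIL. In the library labelled AR1-651 it held 20.7%, and with AR1-651 + AIL 6.61%. TUBB6 went from 5.31% to 13.3% in empty vector cells and from 5.09% to 15.1% in cells labelled AR1-651, so TUBB6 exceeded TUBB in both libraries with AIL and in neither library without it. TUBB4B held the largest share throughout, with 56.4% with empty vector and 69.7% to 71.8% in the other 3 libraries. TUBB2A held 1.43% and 1.63% without AIL, and 4.50% and 3.79% with it. ACTG1 made up 41.4% and 42.7% of the actin pair without AIL, and 54.5% and 54.7% with it. TUBA1B made up 73.2% and 72.4% of the alpha tubulins without AIL, and 60.7% and 60.6% with it.

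**Figure D4:**
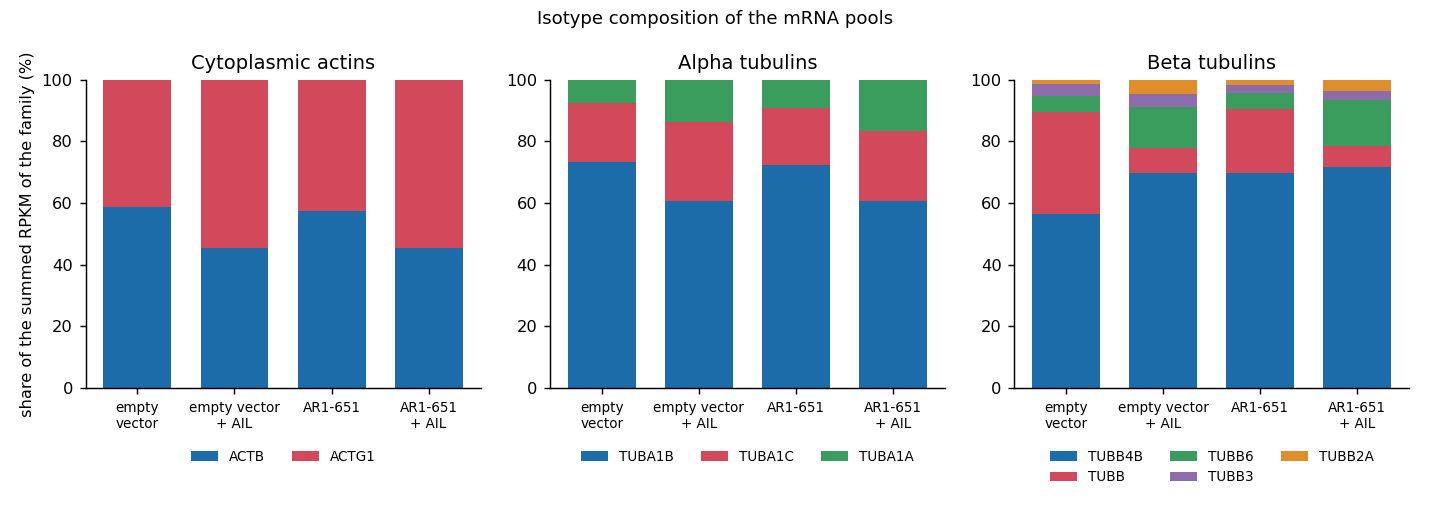
Share (%) of each isotype in the summed RPKM of its family in each library, 1 stacked bar per library. The TUBB segment shrinks with AIL from 33.1% to 8.01% and from 20.7% to 6.61%, and the ACTG1 segment grows from 41.4% to 54.5% and from 42.7% to 54.7%.

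Between the families, actin mRNA was higher and alpha tubulin mRNA lower in the libraries with AIL. The summed RPKM of ACTB and ACTG1 was 1853 and 3311 in empty vector cells, and 1133 and 1773 in cells labelled AR1-651. The beta tubulin sum was 539.8, 501, 675 and 468 RPKM. In empty vector cells the beta sum with AIL was 0.929 of that without it, or -0.11 on the log2 scale, and it turned to 0.03 relative to GAPDH. In cells labelled AR1-651 it was 0.694 of that without AIL, or -0.53, and between -0.75 and -0.22 over 5 scalings. Actin RPKM per tubulin RPKM was 1.75 with empty vector and 4.08 with empty vector + AIL. It was 0.955 in the library labelled AR1-651 and 2.41 with AR1-651 + AIL. The ratio of alpha to beta tubulin was 0.961 and 0.757 in the libraries without AIL, and 0.618 and 0.568 in those with it.

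Without AIL, no member reached 2-fold between the library labelled AR1-651 and empty vector, where 4.01% of all genes were called higher and 11.6% lower. ACTB was at -0.74 and ACTG1 at -0.67, TUBB at -0.35, TUBB4B at 0.63 and TUBB2A at 0.46. The other 5 members lay between -0.12 and 0.28, and each of them changed sign under some setting. The median of the members was -0.07, beside -0.30 for all genes. With the values rescaled to an equal sum in each library (TPM), ACTB and ACTG1 passed 2-fold, at -1.10 and -1.03. Changes with AR1-651 fell with transcript length over all genes (Spearman rho = -0.400 across 14005 genes, which are not replicates). The members' transcripts were between 1595 and 3001 bases long. Genes for ribosomal proteins held 33.0% of the summed RPKM in the library labelled AR1-651, against 22.3% to 25.5% in the other 3, and their part in these differences was not tested.

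With AIL present, the actins again had lower values in the library labelled AR1-651 + AIL than in empty vector + AIL. ACTB was at -0.91, ACTG1 at -0.90 and TUBB3 at -0.77, and the other 7 members lay between -0.39 and 0.08, of which TUBA1A and TUBB4B changed sign under some setting. No member reached 2-fold, beside 1.46% of all genes called higher and 3.53% called lower. Changes in this comparison fell with GC content over all genes (Spearman rho = -0.603 across 14005 genes, which are not replicates). TUBB3 ran from -0.87 to -0.41 over the settings. The comparisons that share a library are not independent of each other. With and without AIL, the actins kept their sign under every one of the 7 settings, at -1.10 to -0.47 for ACTB without AIL and -0.99 to -0.73 with it.

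GAPDH had 1854, 1685, 1840 and 1487 RPKM, lower with AIL by 0.14 and 0.31 on the log2 scale. The ratio of ACTB to GAPDH, the pair of reference genes in the study's quantitative PCR, was 0.586 and 0.895 in empty vector cells, and 0.353 and 0.540 in cells labelled AR1-651. ACTB was thus higher with AIL, and lower in the libraries labelled AR1-651, also when read against GAPDH. Of 10 commonly used reference genes, TBP alone was called, at 1.43 and 1.72 with AIL. The medians of these 10 were -0.05 and 0.05. Called higher were 9.53% of all genes in empty vector cells and 14.9% in cells labelled AR1-651.

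Among the remaining tubulins, 7 of 14 reached an RPKM of 1, and their medians with AIL were -0.12 and 0.30, beside -0.02 and 0.13 for all genes. TUBE1, the epsilon tubulin of centrioles, rose with AIL in both backgrounds, from 4.75 to 11.8 RPKM and from 5.22 to 14.5. Its changes of 1.16 and 1.32 were 0.93 and 0.57 after correction for transcript length and GC content, which ends both calls. TUBG1, the gamma tubulin that nucleates microtubules, changed by 0.80 and 0.45, and the alpha tubulin TUBA4A by 0.63 and 0.52. TUBB4A changed by -0.51 and -0.58, and TUBD1 by -0.45 and 0.25, with a second value that turned sign with the setting. TUBA3D went from 3.53 to 0.60 RPKM in cells labelled AR1-651 and from 0.87 to 0.50 in empty vector cells, both low values. Of 5 further actin genes, 2 reached an RPKM of 1. ACTA2 had 3.92, 8.49, 1.51 and 5.08 RPKM and ACTG2 6.56, 13.0, 5.12 and 7.74 RPKM. Both smooth muscle actins were thus higher in each library with AIL than in its partner, and ACTA2 rose by 1.28 in cells labelled AR1-651.

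The genes for tubulin mRNA decay were not lower with AIL as a list. Of 13 genes, 2 rose and 0 fell in empty vector cells (median 0.24), and 4 rose and 0 fell in cells labelled AR1-651 (median 0.55). Of all genes, 9.53% and 14.9% were called higher in these backgrounds, and 9.03% and 5.74% lower. With 13 genes and such shares, the 0 that fell is not read as a result. After correction for length and GC content the second median was 0.081 and 3 of the 13 rose. TTC5, which recognizes the new tubulin chain, had 12.3, 24.4, 19.9 and 29.7 RPKM, changes of 0.94 and 0.55, the latter 0.081 after that correction. SCAPER, which links TTC5 to the deadenylase, had 6.55, 7.90, 2.45 and 9.97 RPKM and rose by 1.67 in cells labelled AR1-651, with a change of 0.24 in empty vector cells. Of the CCR4-NOT genes, CNOT10 rose by 1.48 and 1.27 (the second 0.90 at its lowest over the settings) and CNOT4 by 1.07 and 1.74. CNOT1, the scaffold of the complex, had changes of -0.76 and -0.20, CNOT6 -0.67 and 0.15, and CNOT11 -0.25 and -0.01, and in cells labelled AR1-651 all 3 changed sign under some setting.

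The folding genes of tubulin and actin include the CCT chaperonin, prefoldin and the tubulin cofactors. Of 19 genes, 3 rose with AIL in empty vector cells (median 0.45) and 1 in cells labelled AR1-651 (median 0.13), and 0 fell. In empty vector cells 9.53% of all genes were called higher and 9.03% lower. In cells labelled AR1-651 these shares were 14.9% and 5.74%, and the 1 of 19 is a smaller share than the 14.9%. Over the 7 settings 1 to 4 rose there, with a median of -0.22 to 0.43. PFDN4, a prefoldin subunit, rose by 1.66 in empty vector cells and changed by 0.32 in cells labelled AR1-651, where the sign turned under some setting. TBCC, a cofactor of the last folding step of the tubulin dimer, rose in both backgrounds by 1.22 and 1.39. TBCD had changes of -0.92 and -0.63, TBCE 0.46 and 0.82, and CCT8 -0.37 and 0.51. TBCB was at 0.11 and -0.66 and PFDN5 at 0.50 and -0.65.

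Among 18 microtubule regulators, 1 rose and 4 fell in empty vector cells, and 2 rose and 1 fell in cells labelled AR1-651 (medians -0.15 and 0.02). Of all genes, 9.53% were called higher and 9.03% lower in empty vector cells, and 14.9% and 5.74% in cells labelled AR1-651. In cells labelled AR1-651 the settings gave 1 to 5 that rose and 0 to 3 that fell. KATNA1, the catalytic subunit of the microtubule-severing enzyme katanin, had 7.58, 30.6, 10.4 and 38.0 RPKM and rose by 1.88 and 1.78. MAP1B, a microtubule-associated protein, fell by 2.06 in empty vector cells, from 37.0 to 8.10 RPKM, and stood at 10.8 and 8.95 RPKM in the libraries labelled AR1-651 and AR1-651 + AIL. VASH2 and VASH1, which remove the last tyrosine of alpha tubulin, fell in empty vector cells by 1.97 and 1.25, from RPKM values of 3.49 and 5.19. VASH1 was at -0.88 in cells labelled AR1-651. MAP7 changed by 0.74 and 0.98, and CLASP2, a plus-end protein, by 0.52 and 1.21, the second 0.61 at its lowest.

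None of 20 actin monomer and filament regulators reached 2-fold with AIL in either background as deposited (medians 0.10 and -0.18). Among all genes, 18.6% reached it either way in empty vector cells and 20.7% in cells labelled AR1-651. In cells labelled AR1-651, up to 2 passed it upwards and up to 1 downwards over the settings, and the median ran from -0.40 to 0.13. CFL2, which severs filaments, was at 0.79 and 0.80, and WDR1, its cofactor, at 0.75 and 0.38. GSN was at -0.61 and -0.63, CAPZA1 at -0.54 and 0.70, and ARPC5 at -0.38 and -0.74.

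SRF, its coactivators MRTFA and MRTFB, and genes that SRF is known to control, mostly of the actin cytoskeleton, were counted as a further list. Of 16 genes of this list that reached an RPKM of 1, 6 rose with AIL in empty vector cells (median 0.35). In cells labelled AR1-651, 5 rose (median 0.65), and 0 fell in either background. SRF itself is among the 6 and the 5, and MRTFB is among the 5. Beside this, 9.53% and 14.9% of all genes were called higher and 9.03% and 5.74% lower, with medians of -0.02 and 0.13. Over the 7 settings 6 to 7 rose in empty vector cells and 3 to 7 in cells labelled AR1-651. SRF had 12.3, 36.5, 8.0 and 17.9 RPKM and rose by 1.49 and 1.07, the second 0.87 at its lowest. VCL, the adhesion protein vinculin, had 24.0, 62.9, 20.3 and 56.9 RPKM and rose by 1.35 and 1.44. FHL2 went from 0.09 to 5.33 RPKM and from 0.10 to 4.55, so its values without AIL were too low for a firm fold. MRTFB was at -0.71 in empty vector cells and 1.01 in cells labelled AR1-651, the latter 0.60 at its lowest over the settings. The other coactivator, MRTFA, was at 0.97 and 0.78. FLNA, the filament crosslinker filamin A, was at -0.52 and -0.58, and ACTN1 at -0.44 and -0.55.

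**Figure D5:**
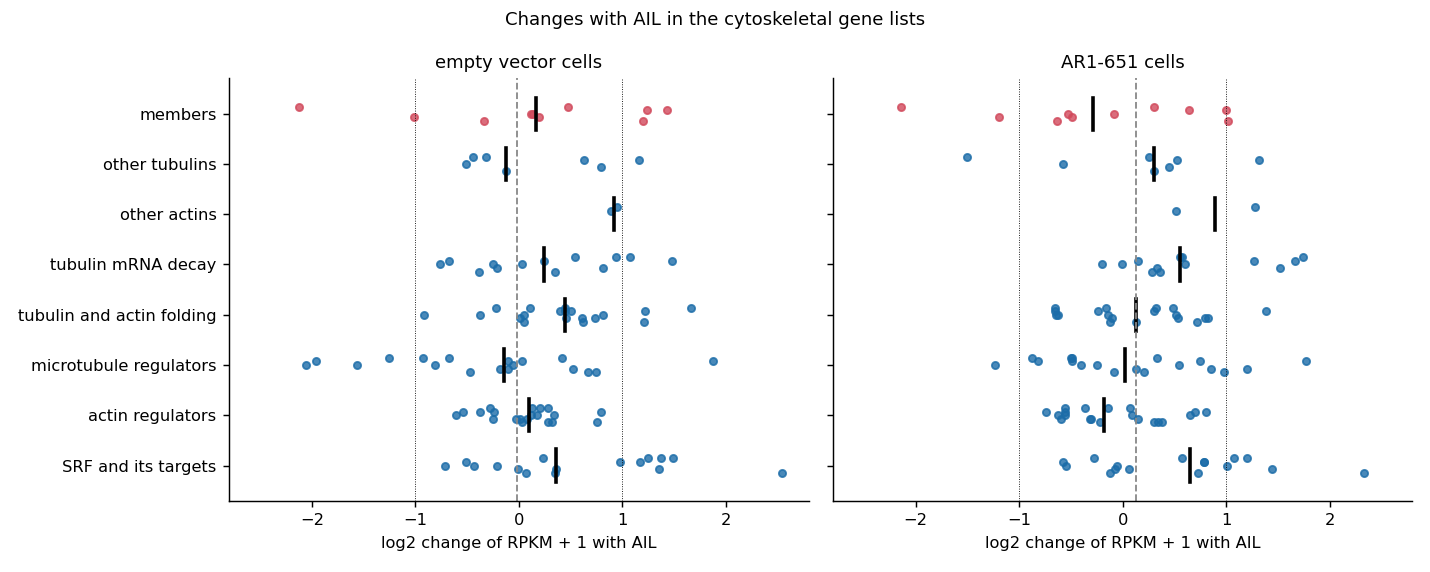
Change of log2(RPKM + 1) with AIL for each gene (points) of the members and of 7 lists of cytoskeletal genes, with the list median (black bar), the median of all genes (dashed line) and 2-fold (dotted lines), in empty vector cells (left) and cells labelled AR1-651 (right). The SRF list holds 6 and 5 genes past 2-fold upwards and 0 downwards, and the members reach from -2.12 to 1.43 and from -2.14 to 1.02. Of all genes, 9.53% and 14.9% were called higher and 9.03% and 5.74% lower.

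The promoters in RefSeq (GRCh38.p14, 250 bases before to 50 after the start) were searched for the CArG box, because ACTG1 and SRF rose together. The motif is its own reverse complement, so both strands were covered. It was found in 1.00% of 11173 promoters of genes that reached an RPKM of 1. Of the 9 members in the table, ACTG1 alone held a match, and ACTB was not in the table. Of 14 promoters of the SRF list, 5 held a match, namely SRF, FHL2, CNN2, TPM4 and FLNA. The list was compiled from known SRF genes, so this share is no independent evidence. The stretches below are 60 bases long, 5′ to 3′ on the strand of the gene, with the first match in capitals, and are shown for the member and for 3 list genes that hold a match.
ACTG1: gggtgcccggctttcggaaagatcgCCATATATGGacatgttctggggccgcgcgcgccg
SRF: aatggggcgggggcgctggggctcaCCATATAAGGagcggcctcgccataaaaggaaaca
CNN2: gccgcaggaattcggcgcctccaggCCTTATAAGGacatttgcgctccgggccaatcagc
FLNA: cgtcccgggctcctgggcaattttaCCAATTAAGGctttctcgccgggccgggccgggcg
They lie at chr17:81512859-81512918 (ACTG1, minus strand), chr6:43171214-43171273 (SRF, plus strand), chr19:1026494-1026553 (CNN2, plus strand) and chrX:154374694-154374753 (FLNA, minus strand). In ACTG1 the match begins 94 bases before the annotated start. SRF holds a second match, which begins 10 bases before the start and is left in small letters here. CNN2, the actin-binding protein calponin 2, had 14.5, 33.9, 9.37 and 16.9 RPKM and rose by 1.17 in empty vector cells, with a change of 0.79 in cells labelled AR1-651. TPM4, a tropomyosin, rose by 1.37 and 1.20, whereas FLNA, with a match of the same kind, was lower with AIL in both backgrounds. A match is a stretch of letters and not a site shown to be bound in these cells.

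Averaged over the 10 members, the pattern across the 4 libraries was almost flat, because TUBB and TUBA1B offset ACTG1, TUBB2A and TUBB6. The 5 genes closest to that average were METTL1, FBXO44, POLD4, PTGES2 and ZFTRAF1, at distances of 0.03 to 0.06 on the log2 scale over 4 libraries and out of 5115 genes that had 10 RPKM or more in every library. Of the members, TUBB3 (0.33) and TUBA1A (0.39) were nearest to the average and TUBB (2.10) was farthest.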

How the data were processed

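RNA of LNCaP cells was sequenced as 1 library for each of 4 conditions, on the Illumina HiSeq2000. The authors deposited RPKM per gene, rounded to 2 decimals. Submitters' processing notes name BWA 0.7.10-r789 and hg19. Genes carry Entrez Gene and RefSeq transcript identifiers. The counter, its treatment of reads that match several genes and its use of strand are not given in the sources used here, and the labels describe both ribosomal RNA depletion and oligo(dT) selection. RPKM holds no read counts, so the depth of a library is unknown. Short genes with low RPKM gave a depth relative to empty vector of 0.948 for empty vector + AIL, 1.09 for AR1-651 and 1.12 for AR1-651 + AIL, from 21 to 28 genes each.

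Symbols came from RefSeq by Entrez Gene identifier (19703 of 19801 genes matched). Changes were differences of log2(RPKM + 1), called at 2-fold, over the 14626 genes that reached 1 RPKM in any library. The members, the gene lists and the promoter search were chosen with earlier results of these data known. Named genes were the members, TTC5, SCAPER, GAPDH, the 2 largest rises and falls with AIL in each pathway list and background, and the 5 genes of most similar pattern. CNN2, TPM4, MRTFA, KLK3 and TBP were named after their values were seen. Some genes that this rule names are not reported here. Alternatives were a pseudocount of 0.1, median-ratio scaling, TPM with and without ribosomal protein genes, values relative to GAPDH, other RPKM minimums and 1.5-fold. A correction of each change for transcript length and GC content (degree 3 in ranks, 95.8% of genes) was chosen after seeing the data. Calculations were tested on simulated data. Python 3.11.15, NumPy 2.4.6, pandas 2.3.3, Biopython 1.88 and matplotlib 3.10.9 were used.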

Additional observations from a re-analysis of the deposited data

Results flagged for a closer look

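Changes with AIL had opposite signs in empty vector cells and in cells labelled AR1-651 for 3 members. The difference of the log2 changes, AR1-651 minus empty vector, was -0.22 for TUBA1A, -0.65 for TUBB3 and -0.68 for TUBB4B. With 1 library per condition these differences were not tested. TUBA1A was at 0.14 and -0.08, values too small to be read as directions, and its sign in cells labelled AR1-651 turned with the scaling. TUBB3 was at 0.12 and -0.53 and TUBB4B at 0.20 and -0.48. Over all genes, the change with AIL fell with GC content in cells labelled AR1-651 (Spearman rho = -0.406). In empty vector cells rho was -0.058, each across 14005 genes, which are not replicates. TUBB3, TUBB4B and TUBB2A lay at the 86.8, 81.8 and 81.4 percentiles of GC content, and TUBB6, with a difference of -0.17, at 82.1. The part of GC content in their differences was not tested. All 10 members had a lower change with AIL in cells labelled AR1-651 than in empty vector cells, from -0.01 for TUBB to -0.79 for TUBB2A. This direction depends on the scaling, since 4 of 10 were lower with TPM and 8 of 10 relative to GAPDH. After correction for length and GC content all 10 were lower, with a median difference of -0.13. Beside this, the median of all genes was -0.02 in empty vector cells and 0.13 in cells labelled AR1-651, and the part of depth in it was not tested. The share of all genes with opposite signs or with a lower change is not given here. Neither count is therefore read as particular to the members.

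Opposite signs were also found, untested, for 7 of the genes named from the lists of cytoskeletal genes. Further list genes that are not named had them too. The difference was 0.70 for TUBD1, 0.82 for CNOT6, 0.89 for CCT8, -0.77 for TBCB, -1.16 for PFDN5, 1.24 for CAPZA1 and 1.72 for MRTFB. Among the luminal markers named above, KRT8 (-1.35), KRT18 (-1.22) and KLK3 (-1.39) also had opposite signs. MRTFB went from 11.3 to 6.49 RPKM in empty vector cells and from 3.12 to 7.29 RPKM in cells labelled AR1-651. The 5 genes closest to the average of the members had opposite signs as well, since that average has them: METTL1 (-0.36), FBXO44 (-0.32), POLD4 (-0.36), PTGES2 (-0.44) and ZFTRAF1 (-0.34).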

How the results depend on the processing

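No paired analysis was possible because each condition had 1 library and so no replicate numbers to pair. An additive fit of plasmid and AIL was not run. Values without replicates were taken as moved when a log2 median changed by over 0.1 or a count by over 1.5 times. TUBB fell past 2-fold with AIL in both backgrounds under all 7 settings (-2.36 to -1.84), and ACTG1, TUBB2A and TUBB6 rose past it in empty vector cells. No called change of a member reversed. For AIL in empty vector cells, the median of the members (0.17) was 0.061 with TPM without ribosomal protein genes and 0.30 relative to GAPDH, which left 1 member lower instead of 2. For AIL in cells labelled AR1-651, the median (-0.28) was -0.50 with median-ratio scaling, which left 0 members higher instead of 2, -0.092 with TPM, and 0.021 relative to GAPDH, with 1 member lower instead of 2. For AR1-651 against empty vector, the median (-0.07) was 0.20 with median-ratio scaling, -0.43 with TPM (2 members lower instead of 0), -0.23 with TPM without ribosomal protein genes and 0.10 after correction for length and GC. With AIL present, the median between the backgrounds (-0.35) was -0.17 relative to GAPDH and -0.18 after the same correction. A threshold of 1.5-fold called 1 member higher and 2 lower with AR1-651 against empty vector, and 3 lower with AIL present. AIL changes in the 2 backgrounds differed by a median of -0.22 over the members, and of -0.43 with median-ratio scaling, 0.060 with TPM, -0.079 with TPM without ribosomal protein genes and -0.055 relative to GAPDH, the last 3 added after seeing the data. Its sign thus turned with TPM. The median of all genes moved too, from -0.30 to -0.085 with median-ratio scaling and to -0.65 with TPM for AR1-651 against empty vector, and from 0.13 to -0.028 and 0.30 for AIL in cells labelled AR1-651. The shifts of the members follow from the common factor each scaling applies to a library; for the correction the cause was not tested.

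Among all genes, 586 higher and 1701 lower with AR1-651 became 1066 and 817 with median-ratio scaling, and 2184 higher and 839 lower with AIL in cells labelled AR1-651 became 1582 and 1261. A pseudocount of 0.1 raised the genes lower with AIL from 1321 to 2139 in empty vector cells and from 839 to 1331 in cells labelled AR1-651. It raised those lower with AR1-651 from 1701 to 3047. With AIL present it moved the counts between the backgrounds from 214 higher and 517 lower to 509 and 1160, and a minimum RPKM of 5 moved 214 to 112. With 1.5-fold, 3064 genes were higher and 3233 lower with AIL in empty vector cells, from 1394 and 1321. In cells labelled AR1-651 they were 4183 and 2145. For AR1-651 they were 1570 and 4720 without AIL, and 1130 and 2271 with it. With TUBA4A and the other listed alpha tubulins in the sum, TUBA1B held 65.8% and 65.6% without AIL and 47.2% and 47.7% with it.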
